A study of Mus musculus with 16 samples.

Results

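The 8 of 16 optic nerve head libraries with a Lars2 level above 2000 raw CPM, that is counts per 1000000 counts of the library total, were set against the other 8. They were chosen by that measured value and not by a treatment: the high libraries were aged naïve replicates 1, 3 and 4, saline replicate 4 and microbead replicates 1 to 4, and the low libraries were aged naïve replicate 2, saline replicates 1 to 3 and young naïve replicates 1 to 4. RNA was sequenced from the glial lamina, the unmyelinated start of the mouse optic nerve, in wild-type C57BL/6 mice. The microbead group had received polystyrene beads in the anterior chamber of the right eye, which raise the intraocular pressure, 4 weeks before, at a labelled age of 13 weeks. The saline group had received saline instead at the same age and interval. The aged naïve and young naïve groups were uninjected mice of 40 and 13 weeks. Each group had 4 libraries, and each library pooled the right nerves of 4 mice, 2 male and 2 female.

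Lars2 is a nuclear gene for the mitochondrial leucyl-tRNA synthetase, the enzyme that charges the mitochondrial transfer RNA for leucine. Mitochondria make a few subunits of the respiratory chain with ribosomes and synthetases of their own, and most other subunits of the chain are imported from the cytosol. Rn45s is the precursor of the cytosolic ribosomal RNAs, and Mir5109 is annotated as a microRNA gene.

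Lars2 lies on chromosome 9, between 123366940 and 123462664 in mm10, and has 21 exons in the GENCODE M21 transcript. A part of its 3′ untranslated region is shown because another annotated transcript holds the same letters. From 5′ to 3′ on the plus strand, chr9:123461947-123461976 in the last exon reads as follows.
Lars2 3′ untranslated stretch: gaaaagttaccacagggataactggcttgt
These 30 bases lie inside a run of 41 that is identical to a stretch of the GENCODE transcript AA474408. Among the GENCODE M21 transcripts, no gene other than these 2 held them on either strand, and AA474408 had no row in the count table. Sequences outside that set of transcripts were not searched, so the stretch may also occur elsewhere. Which part of Lars2 the reads covered cannot be read from counts per gene.

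Lars2 took between 0.413% and 1.04% of all counts in the high libraries, against 0.00877% to 0.0645% in the low libraries. Among the high libraries, the aged ones (replicates 1, 3 and 4) had 9382, 9993 and 10350 raw CPM, saline replicate 4 had 5676, and microbead replicates 1 to 4 had 6254, 4674, 4970 and 4128. Among the low libraries, aged replicate 2 had 644.6 raw CPM, saline replicates 1 to 3 had 122, 87.7 and 103, and young replicates 1 to 4 had 205, 194, 124 and 159. Microbead replicate 4 lay just inside the threshold and aged replicate 2 just outside it, and no library fell between 644.6 and 4128. By label, 4 of 4 microbead libraries, 1 of 4 saline, 3 of 4 aged and 0 of 4 young libraries were high. Lars2 levels within the high class went with the label: the 3 aged libraries lay above the other 5.

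**Figure D1:**
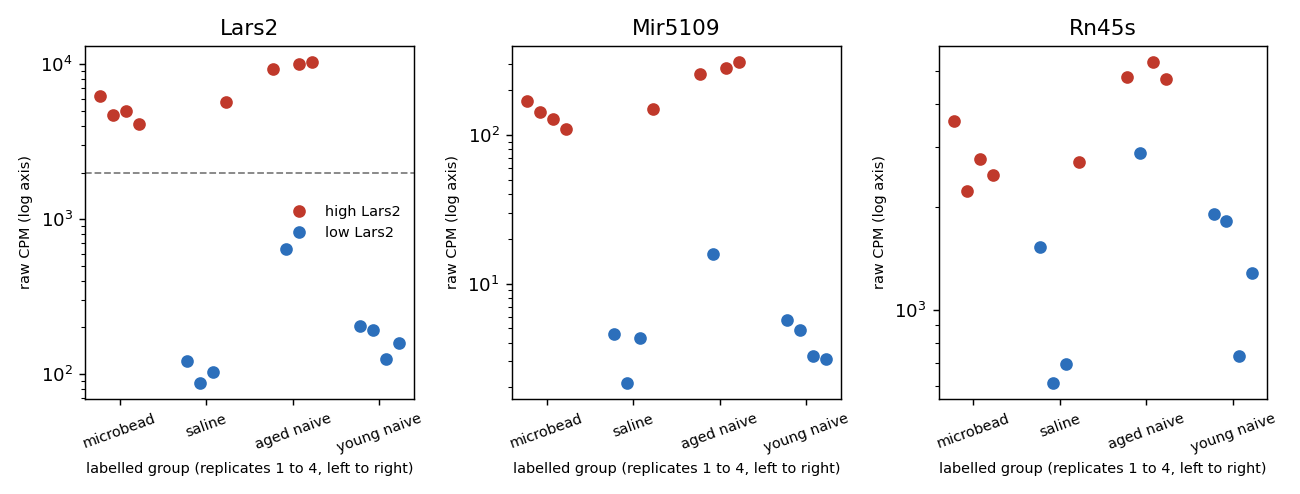
Raw CPM (counts scaled to the library total, log axis) of Lars2, Mir5109 and Rn45s in each of the 16 libraries, by labelled group, with red points for high and blue points for low Lars2 libraries and a dashed line at the threshold of 2000. For Lars2 the lowest red point stands at 4128 and the highest blue point at 644.6, for Mir5109 at 109 and 15.9, and for Rn45s the ranges meet.

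Mir5109 separated the same libraries, although it lies on another chromosome (chromosome 5, 17776749 to 17776835, 87 bases). It had a lowest, median and highest value of 109, 159 and 310 raw CPM in the high libraries, against 2.15, 4.46 and 15.9 in the low ones. The ratio of Lars2 to Mir5109 counts was 36.2 ± 2.2 in the high libraries and 37.2 ± 8.69 in the low libraries (SD, n = 8 each), so that both genes differed between the classes by a similar factor. Whether the reads counted for Lars2 and Mir5109 came from their own transcripts cannot be read from counts per gene, and the values stand for counts assigned to these annotations. Rn45s did not separate the classes. It had 2226, 3166 and 5320 raw CPM as lowest, median and highest value in the high libraries, against 611, 1400 and 2885 in the low libraries, and the low library inside the range of the high ones was aged replicate 2. The ratio of Lars2 to Rn45s was 1.66 to 2.19 in the high libraries and 0.0801 to 0.223 in the low libraries.

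The other genes for mitochondrial synthetases overlapped between the classes with 1 exception. Of the 18 tested, 1 lay above all low libraries in every high library and 0 lay below, beside 7.79% above and 6.40% below over all genes, and the median log2 difference between the class medians was 0.05, against 0.01 over all genes. The 1 gene was Vars2, the valyl-tRNA synthetase, with 9.2, 11 and 13.2 CPM in the high and 4.48, 6.48 and 7.12 CPM in the low libraries (lowest, median, highest). CPM without further mention are scaled to library totals corrected by TMM. The summed level of the 18 genes was 372 to 419 CPM in the high libraries and 386 to 435 CPM in the low ones. Among the 18 cytosolic synthetases Iars lay above and Farsb and Rars below without overlap.

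The totals of the libraries differed between the classes by less than their spread. The high libraries held 6213789 to 10726122 counts, with a mean of 8358000 ± 1500000, and the low libraries 8055203 to 10258288, with a mean of 8980000 ± 673000 (SD, n = 8 each). The difference of -622000 counts did not pass (exact permutation test, two-sided, p = 0.304, where 12870 arrangements allow a smallest p of 0.000155). The test takes all libraries as exchangeable, although the classes go with the labels. Within the aged group the high libraries held 6214000 to 7670000 counts, against 8921000 in replicate 2. Saline replicate 4 held 8273000, against 8055000 to 10260000 in saline replicates 1 to 3, and the microbead libraries held 7322000 to 10730000. Between 16446 and 17007 genes had a count, with ranges that overlapped between the classes. The 10 most abundant genes other than Lars2, Mir5109 and Rn45s took 6.99% to 9.81% of the counts in the high libraries and 9.82% to 12.4% in the low ones. The number in the sample titles may mark a submission set but is not explained there. It did not divide the libraries as the classes do: 2 of 7 libraries with 3, 4 of 7 with 4 and 2 of 2 with 5 were high. It went in part with the labels, since all young libraries had 3, all saline libraries 4, and the microbead libraries 4 or 5. Between saline and young libraries the number cannot be told apart from the label.

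Of the 14417 genes with sufficient counts, 1123 (7.79% of all tested) were higher in every high library than in any low library, and 923 (6.40%) were lower in every one, so that 54.9% of the genes apart were higher. Scaled by the library total only, 1708 genes were higher and 433 lower, 79.8% of those apart being higher, and the median of all genes moved to 0.121 on the log2 scale. These counts describe the classes and carry no test, because the libraries were selected on a gene of the same table. The genes above had larger differences: 777 of the 1123 had class medians at least 1.5-fold apart, against 205 of the 923 genes below, and 279 and 3 genes were at least 2-fold apart. The median log2 difference was 0.74 for the genes above and -0.47 for those below. Since each library holds RNA of several cell types, fewer cells of a type and less RNA per cell cannot be told apart.

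After Mir5109 and Lars2, the gap between the nearest libraries of the classes was largest for Ngfr, the p75 neurotrophin receptor. Ngfr had 32.8, 29.5 and 39.8 CPM in the aged high libraries, 47.4 CPM in saline replicate 4 and 29.3, 39.7, 35.3 and 52.2 CPM in the microbead libraries. Among the low libraries, aged replicate 2 had 2.12 CPM, the saline libraries had 4.94, 6.83 and 5.32 CPM, and the young libraries had 6.72, 5.87, 3.63 and 3.38 CPM. All high libraries were thus at 29.3 CPM or more whatever their label, and aged replicate 2 had the lowest level of all 16.

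The next gaps in size were 1.58 for Vat1, 1.37 for Nacc1, 1.28 for Epn1 and 1.24 for Dpysl2 on the log2 scale. Vat1, which encodes a vesicle membrane protein, had a lowest, median and highest level of 60.4, 64.9 and 76.7 CPM in the high libraries, against 12.4, 16 and 20 CPM in the low libraries. Epn1, the clathrin adaptor epsin 1, had 52.3, 57.6 and 70.5 CPM against 13.2, 15.8 and 21.4 CPM. Dpysl2, a tubulin-binding collapsin response mediator, was the most abundant of these genes, with 315, 351 and 406 CPM in the high libraries and 95.1, 120 and 133 CPM in the low ones. Within each class the spread of these genes was small beside the distance between the classes, which follows from their choice by the gap.

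The transcriptional regulator Nacc1 had 35.4, 37.7 and 48.5 CPM in the high libraries and 8.01, 12.1 and 13.5 CPM in the low libraries. Gpr162, an orphan receptor, had 11.6, 16.7 and 19.2 CPM against 2.24, 3.57 and 4.94 CPM. Zfyve1, whose protein binds phosphoinositides at the endoplasmic reticulum, had 25.7, 29.7 and 32.7 CPM against 7.19, 10.2 and 11.3 CPM. Lrfn3, a synaptic adhesion molecule, had 12, 13.4 and 17.1 CPM against 2.61, 3.48 and 5.32 CPM. For Nacc1 and Zfyve1 the lowest of the 16 libraries was again aged replicate 2, while saline replicate 4 stayed inside the range of the microbead and aged high libraries for Nacc1, Gpr162, Zfyve1 and Lrfn3.

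**Figure D2:**
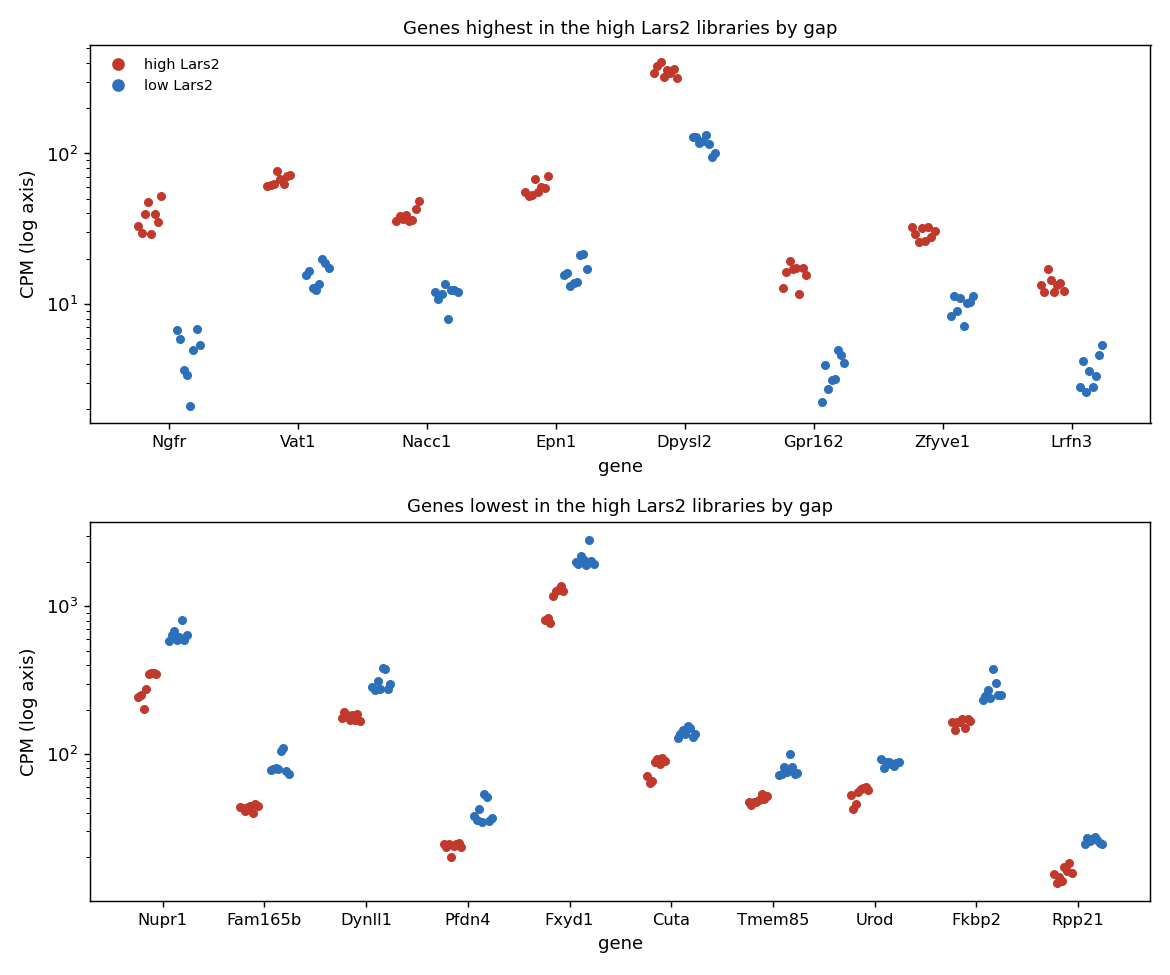
Levels in CPM (log axis) of the 8 genes highest and the 10 genes lowest in the high libraries by the gap between the classes, Lars2 and Mir5109 left out, with 1 point per library, the 8 high libraries in red to the left of the 8 low libraries in blue. The gaps are wider for the genes above, from 2.06 on the log2 scale for Ngfr to 1.14 for Lrfn3, than for those below, from 0.72 for Nupr1 to 0.42 for Rpp21.

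The genes that were lowest in the high libraries differed by less. Nupr1, a small stress-induced nuclear protein, had 244, 251 and 203 CPM in the aged high libraries, 274 CPM in saline replicate 4 and 347, 355, 353 and 349 CPM in the microbead libraries. Among the low libraries, aged replicate 2 had 619 CPM, the saline libraries 808, 588 and 640 CPM, and the young libraries 586, 643, 680 and 594 CPM. The aged high libraries were therefore the lowest of all, with the microbead libraries between them and the low class.

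Fxyd1, a regulator of the sodium pump that is abundant in glia, had 770, 1220 and 1380 CPM in the high libraries, against 1910, 2000 and 2830 CPM in the low libraries. Dynll1, a dynein light chain, had 168, 179 and 193 CPM against 273, 291 and 383 CPM. Fkbp2, a prolyl isomerase of the endoplasmic reticulum, had 146, 165 and 173 CPM against 231, 251 and 378 CPM. Aged replicate 2 was the highest of all libraries for Dynll1 and for Fkbp2.

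The other genes at the lower end were Fam165b, Pfdn4 (a prefoldin subunit), Cuta, Tmem85 (a subunit of the membrane protein complex of the endoplasmic reticulum), Urod (an enzyme of heme synthesis) and Rpp21 (a subunit of ribonuclease P). Their medians lay 0.63 to 0.85 lower on the log2 scale in the high libraries. The exons of the 10 genes lowest in the high libraries added up to 500 to 2021 bases, and those of the 8 highest to 2565 to 4432 bases.

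Nuclear genes for the respiratory chain and for mitochondrial ribosomes lay on the lower side. The list of genes encoded in the mitochondria themselves had 0 members in the count table, so these genes could not be compared. Of the 75 oxidative phosphorylation subunits tested, 37 were below every low library in all high libraries and 0 were above. Their median log2 difference was -0.36. Over all genes 6.40% lay below. Among genes of up to 1170 bases 28.3% lay below, with a median log2 difference of -0.39. Of the 74 mitochondrial ribosomal proteins 40 were below and 0 above, with a median of -0.38. The summed level of the oxidative phosphorylation genes was 10600, 11600 and 12200 CPM in the high libraries (lowest, median, highest), against 13700, 14700 and 22700 CPM in the low ones, and the 22700 CPM belonged to aged replicate 2. The sum of the mitochondrial ribosomal proteins was 2560, 2760 and 2990 CPM in the high libraries and 3390, 3530 and 4880 CPM in the low libraries, the last again in aged replicate 2. For both lists no high library reached any low one, also without that library.

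Among single members, Mrps12, a protein of the small mitochondrial subunit, had 29.5, 35 and 37.7 CPM in the high libraries, against 49.7, 57.7 and 73.6 CPM in the low ones. Ndufv3 of complex I had 49.3, 82.7 and 93.7 CPM against 112, 135 and 144 CPM. Atp5k of the ATP synthase had 38.5, 44.3 and 48.3 CPM against 59.2, 69.1 and 123 CPM. The exons of these lists were short. Their medians were 681 bases for oxidative phosphorylation subunits and 1054 bases for mitochondrial ribosomal proteins, against 2869 bases over all genes. The median log2 differences of both lists were no lower than the -0.39 of genes of up to 1170 bases. Larger shares of both lists than the 28.3% of those genes lay below without overlap. Whether the lists differ from other genes of their length was not tested. The cytosolic ribosomal proteins, whose median was 799.5 bases, had 0 of 58 members above and 1 below, Rpl14, and a median log2 difference of -0.18. Only 58 of 77 such genes had sufficient counts, and all 77 summed to 1850 to 2290 CPM in the high and 2040 to 3730 CPM in the low libraries. Rpl35a, Rps25, Rpl29 and Rpl18 had mean counts of 12.7, 13, 52.1 and 151. These genes were named for the largest class differences of the list, so their counts do not stand for all its members. The members without sufficient counts limit the comparison with the mitochondrial lists. The edgeR test of aged against young libraries called 2836 of 14417 genes, 1624 higher and 1212 lower, or 19.7% in either direction. In it 3 of 75 oxidative phosphorylation subunits (Ndufa10, Atp5d and Ndufv3) and 3 of 74 mitochondrial ribosomal proteins (Mrps6, Mrpl49 and Mrps15) were lower and 0 were higher.

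Markers of the cells of the nerve head mostly overlapped between the classes. Astrocytes form the glial lamina, and of 15 astrocyte markers 1 lay above and 0 below without overlap, beside 7.79% and 6.40% over all genes. The summed level of the list was 11500, 19500 and 23900 CPM in the high libraries and 11400, 20900 and 22000 CPM in the low ones, with the aged libraries, 3 high at 11500 to 12600 CPM and 1 low at 11400 CPM, at the bottom of both. The 1 marker apart was Fgfr3, with 40.6, 50.6 and 55.1 CPM in the high and 24, 32.8 and 38.3 CPM in the low libraries. The test of aged against young called 1624 genes higher and 1212 lower, 19.7% of all genes in either direction. In it 8 of the 15 astrocyte markers were lower, among them the intermediate filament gene Vim with a log2 fold change of -1.35 (adjusted p = 1.53e-05, edgeR), and the water channel gene Aqp4 was higher. Lower calls were not particular to this list: 7 of 15 microglial, 6 of 12 endothelial and 4 of 8 mural markers were lower and 0 higher. Of 9 photoreceptor markers 0 were called.

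Of 15 microglial markers 3 lay below, C1qc and Aif1 among them, and 0 above, beside 6.40% and 7.79% over all genes, with a median log2 difference of -0.42 and a sum of 1530 to 2380 CPM in the high and 2090 to 3430 CPM in the low libraries. Aif1, which encodes Iba1, had 20.1, 24.7 and 28.4 CPM against 35.7, 46.7 and 53 CPM. Of 13 oligodendrocyte and myelin markers 1 lay above, Cldn11, and 0 below, and of 12 endothelial markers 1 lay below, Ly6c1, both close to the shares over all genes. Oligodendrocyte precursor (6), mural (8), meningeal fibroblast (10), photoreceptor (9), retinal ganglion cell and axon (10) and pigment cell (8) markers had no member apart in either direction. The summed photoreceptor level ran from 45 to 2040 CPM in the high and from 13.3 to 6440 CPM in the low libraries. The part that these cells play in the class difference was not tested.

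Among genes of stress, Ddit4, an inhibitor of mTOR signalling that rises in hypoxia and energy stress, had the largest difference of the 8 listed. It had 48.9, 21.6 and 40.9 CPM in the aged high libraries, 27.6 CPM in saline replicate 4 and 31.3, 39.4, 36.4 and 32 CPM in the microbead libraries. Among the low libraries, aged replicate 2 had 5.3 CPM, the saline libraries 10.1, 3.11 and 2.91 CPM, and the young libraries 7.13 to 9.52 CPM. Vegfa, the endothelial growth factor, also lay above without overlap, with 66.1, 87 and 116 CPM in the high and 45.1, 55.7 and 63.1 CPM in the low libraries, while the other 6 genes overlapped. Over all genes 7.79% lay above and 6.40% below. Of 10 genes listed as cytosolic chaperones 2 lay below and 0 above, Hspd1, whose protein works in mitochondria, and Hspb1, at 37, 62.9 and 73.1 CPM against 87.6, 109 and 120 CPM. No immediate early gene of the 14 tested and 1 of 11 pan-reactive astrocyte genes (Hspb1 again) lay apart, and the median log2 difference of the pan-reactive list was -0.24. Replication-dependent histones had 1 gene above, Hist2h3c1, and 1 below, Hist1h2bc, of 14 tested, while 11 of the 14 had a lower class median in the high libraries and their summed level was 415 to 639 CPM in the high and 654 to 847 CPM in the low libraries, without overlap.

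The class of a library went with a trend over gene length. In each library the log2 level of a gene minus its median over the 16 libraries was correlated with the length of its exons across 14417 genes. Spearman's rho was 0.294 to 0.41 in the high libraries and -0.506 to -0.176 in the low libraries, with no overlap. Saline replicate 4 had 0.41, against -0.424 to -0.398 in saline replicates 1 to 3, and aged replicates 1, 3 and 4 had 0.294 to 0.405, against -0.396 in aged replicate 2. These values describe genes measured in 1 library, which are not independent replicates, and the median that each is set against holds the library itself. The signs depend on that median: set against the median of the young libraries, rho was 0.356 to 0.463 in the high libraries and -0.385 to 0.261 in the low ones, still without overlap but with a gap of 0.095 in place of 0.47.

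In 10 bins of genes by length, the median log2 difference between the classes was -0.39 in the shortest bin, up to 1170 bases, and grew with length to 0.31 in the longest, from 6286 bases. In the shortest bin 28.3% of the genes lay below without overlap and 0.622% above. In the bin from 4765 to 6284 bases, 17.1% lay above and 0.277% below. Over all bins the genes above had a median exon length of 4304 bases and those below 1239 bases.

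The class difference changed less over GC content. Over the 13059 genes (90.6%) for which a transcript gave a GC content, rho was -0.149 to 0.274 in the high libraries and -0.248 to 0.173 in the low ones. The median difference between the classes stayed between -0.02 and 0.11 in all 10 bins by GC content. The share of genes above without overlap was 3.68% in the bin of lowest and 13.9% in the bin of highest GC content, and the share below was 4.21% to 8.28% over the bins. The genes above had a median GC content of 52.4% and those below of 50.7%, against 49.8% over all genes. After removal of the length trend from each library, 643 genes lay above and 309 below, 552 and 146 of which were among the 1123 and 923. All 8 named genes above were still apart and 5 of the 10 below.

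**Figure D3:**
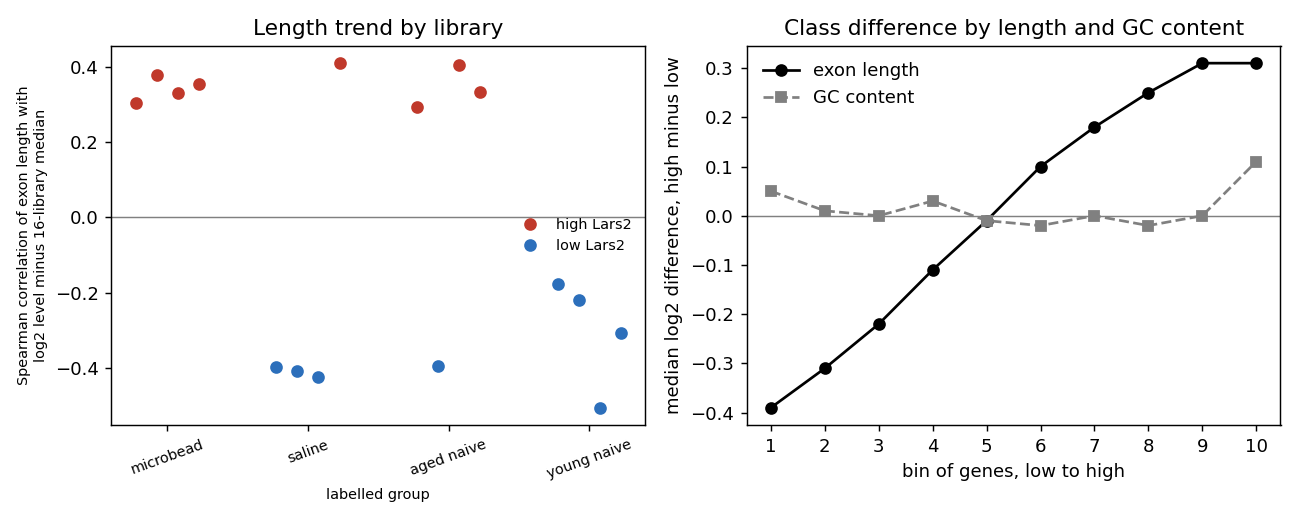
Left, Spearman's rho of exon length with the log2 level minus the 16-library median in each library by labelled group, red for high and blue for low Lars2 libraries. Right, the median log2 difference, high minus low, in 10 bins of genes by exon length (black) and by GC content (grey), which runs from -0.39 to 0.31 over length and stays between -0.02 and 0.11 over GC content.

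The aged and the saline group each held libraries of both classes, so the classes could be compared within a label and without a shared library. Over 14414 genes, Lars2, Mir5109 and Rn45s left out, the difference of aged replicates 1, 3 and 4 from aged replicate 2 had a Spearman correlation of 0.56 across genes with the difference of saline replicate 4 from saline replicates 1 to 3. These 14414 genes include those chosen for lying apart between the classes. In both the class differs along with the length trend of the libraries, and 1 side of each comparison is a single library. Of the 5595 genes that differed at least 1.5-fold within the aged group and the 3460 within the saline group, 1793 did so in the same direction, which is 32% of the first and 51.8% of the second, and 242 did so in opposite directions. Of the 1793 genes 1204 were higher in the high libraries and 589 lower. Ngfr was 3.85 higher within the aged and 3.02 higher within the saline group on the log2 scale, Vat1 2.15 and 2.02, and Ddit4 2.68 and 2.54, whereas Nupr1 fell by 1.42 and 1.29.

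**Figure D4:**
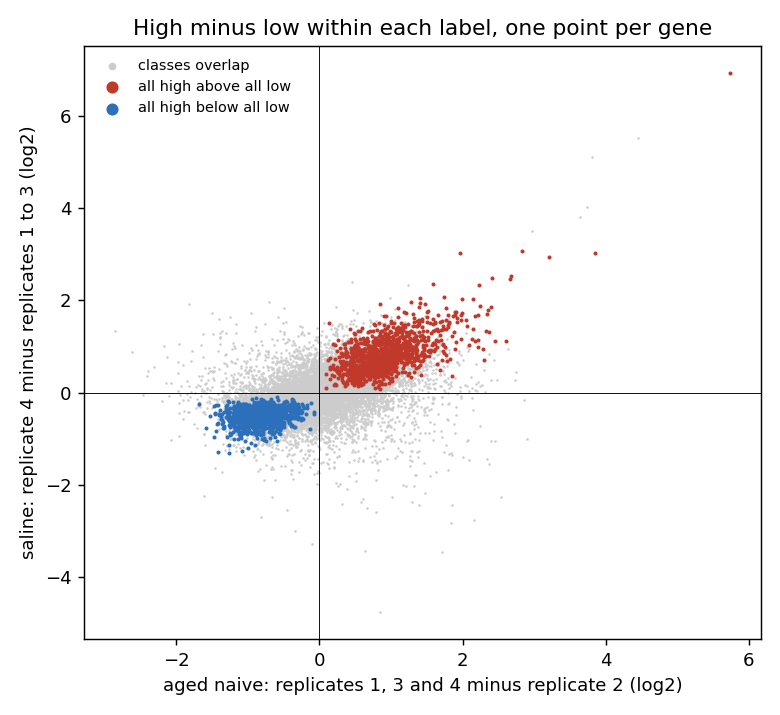
Log2 difference of each of 14414 genes between high and low libraries within the aged naïve group (x axis) and within the saline group (y axis), in red for the genes above and in blue for the genes below without overlap over all 16 libraries and in grey for the others. Red and blue points fall in opposite quadrants by their definition, and the correlation of 0.56 is over all points, red and blue included.

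Saline replicate 4 stood closer to the microbead libraries than to the other saline libraries. It differed at least 1.5-fold from the mean of the microbead libraries in 5.77% of the genes, but from the mean of saline replicates 1 to 3 in 24%. Its deviations from the 16-library median correlated best with those of microbead replicate 2 (r = 0.434 across genes), with a mean of 0.275 to the other high libraries and of -0.275 to its own group. Aged replicate 2 stood apart in another way: its best correlation was 0.192, with saline replicate 1, and it differed at least 1.5-fold in 30.3% of the genes from the young libraries and in 38.8% from the mean of the other aged libraries. The median SD per gene on the log2 scale was 0.245 among the high and 0.261 among the low libraries, against 0.321 among all 4 aged and 0.176 among the 3 aged high libraries.

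The count of calls between microbead and saline libraries turned on saline replicate 4. In edgeR's quasi-likelihood test over all 16 libraries, 0 of 14417 genes (0.00%) passed, with 2772 at an unadjusted p under 0.05 and a smallest adjusted p of 0.206, while DESeq2 called 58. In the 14 libraries of the authors' comparisons, which leave out aged replicate 2 and saline replicate 4, 1810 of 14541 genes (12.4%) were called. Without saline replicate 4 alone the count was 1527, and without aged replicate 2 alone it was 0. With the 14 libraries every microbead and aged library is high and every saline and young library is low, so that in them the Lars2 class cannot be told apart from injection of beads or from age.

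The genes that separated the classes followed these shifts. Over 16 libraries 0 of the 1123 genes above and 0 of the 923 below were called between microbead and saline libraries, and over 14 libraries 761 of the 1123 (67.8%) were called higher and 177 of the 923 (19.2%) lower. Ngfr had a log2 fold change of 1.28 ± 0.77 (SE, adjusted p = 0.355, edgeR) over 16 libraries and of 2.77 (adjusted p = 1.08e-06) over 14. Dpysl2 had 1.12 ± 0.36 (adjusted p = 0.206) over 16 libraries and 1.73 (adjusted p = 1.9e-09) over 14. The genes were selected on the values of these same libraries, so the calls are a description and lend them no support.

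Between aged and young libraries, where 3 of 4 aged and 0 of 4 young libraries were high, 518 of the 1123 genes above were called higher and 0 lower (46.1%), and 116 of the 923 below were called lower and 0 higher (12.6%). Over all 14417 genes 1624 were called higher and 1212 lower, which is 19.7% in either direction. Over 14 libraries 828 of the 1123 were called higher and 397 of the 923 lower. Of all 14541 genes tested there, 2193 were called higher and 1663 lower, 26.5% in either direction. Vat1 had a log2 fold change of 1.79 ± 0.50 between aged and young libraries (SE, adjusted p = 0.0141, edgeR), Dpysl2 of 1.35 ± 0.36 (adjusted p = 0.0111) and Nupr1 of -0.93 ± 0.31 (adjusted p = 0.0328). Ngfr, at 2.4 ± 0.85, had an adjusted p of 0.0453 but was not called, since its unadjusted p did not pass. The response to microbeads differed from the response to age in 538 genes (3.73%) over 16 libraries and in 1105 (7.60%) over 14. None of the 18 named genes had an adjusted p under 0.05 for that difference. These genes were chosen by the gap between the classes, and both responses set mostly high against mostly low libraries. The class difference thus largely cancels between the responses, and neither this result nor the fold changes between aged and young libraries lend the genes support.

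Between saline and young libraries, where 1 of 4 and 0 of 4 were high, 0 genes (0.00%) were called by edgeR and 0 by DESeq2, with 795 at an unadjusted p under 0.05, and 1 gene (0.00688%), Vgll4, was called over 14 libraries. Between microbead and aged libraries, where 4 of 4 and 3 of 4 were high, 1441 genes (10.0%) were called over 16 libraries and 1578 (10.9%) over 14. Over 16 libraries, where the aged group holds the low replicate 2, 8 of the 1123 genes above, 5 higher (Bzrap1, Dusp3, Dennd2a, Capns1 and Maf) and 3 lower (Zfp740, Hif1an and Adrb1) in the microbead libraries, and 0 of the 923 below were among the 1441. Over 14 libraries, where both groups are wholly high, 9 of the 1123 were called higher and 32 lower in the microbead libraries (3.65%), and 28 of the 923 were called higher and 0 lower (3.03%). Of the 1441 genes 836 were higher and 605 lower in microbead than in aged libraries. Among those called higher were 5 of 15 astrocyte, 5 of 15 microglial, 4 of 12 endothelial, 4 of 10 meningeal fibroblast and 2 of 8 mural markers. None of these 5 lists had a member called lower, and 0 of 9 photoreceptor markers were called. Of 14 immediate early genes 6 were called lower.

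A further set of genes was near absent from the low libraries and uneven within the high class. These genes were sought after the values had been seen: 19 genes had at most 3 counts summed over the 8 low libraries and at least 20 over the 8 high libraries, while 2 genes met the reverse rule, Sst with 2 counts over the high and 44 over the low libraries and Pck1 with 1 and 56. The most abundant was Crisp1, which encodes a cysteine-rich secretory protein of epididymal epithelium. Aged replicates 1, 3 and 4 held 212, 93 and 42 Crisp1 counts, saline replicate 4 held 237 and microbead replicates 1 to 4 held 2, 2, 7 and 13. Young replicate 2 held 1 count and the other 7 low libraries 0 counts, aged replicate 2 included. A count of 0 allows up to 3 counts per library, by counting error only.

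Of the 19 genes 17, Crisp1 included, had fewer counts over the 4 microbead libraries together than in saline replicate 4 alone, and Cecr6 and Mafa did not. Cuzd1 had 91 counts summed over the 3 aged high libraries, 81 in saline replicate 4 and 10 over the 4 microbead libraries, against 2 over the low libraries. Wfdc10, of the whey acidic protein inhibitor family, had 76, 35 and 3 counts over these libraries, against 2, and the beta-defensin gene Defb28 had 63, 35 and 9 counts, against 0. All 19 genes together had 566, 241 and 127 counts in the aged high libraries, 609 in saline replicate 4 and 12, 7, 33 and 59 in the microbead libraries, against 1 to 5 in each low library. Over all 44 beta-defensin genes of the table, 4 of which are among the 19, the sum was 139, 51 and 33 counts in the aged high libraries, 150 in saline replicate 4 and 8 to 19 in the microbead libraries, against 5 to 9 in the low libraries. For the 19 genes, these 4 included, the few counts in the low libraries are set by the rule that chose them. They lend no support to a difference between the classes.

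The genes of the epididymis did not all behave alike. In a list of 8 epididymal genes, drawn up with earlier results of these data known, Crisp1 and Spink8, a serine protease inhibitor, were highest in saline replicate 4 and aged replicate 1, Spink8 with 91, 29 and 20 counts in the aged high libraries and 116 in saline replicate 4. Defb12 had 0 counts in all 16 libraries, and Lcn5, Lcn8 and Lcn9 had at most 2 in any. Rnase10 had 1 to 6 counts in the high libraries and 0 to 12 in the low ones, the highest in saline replicates 1 and 2. Adam7 had 2 to 36 counts in the high libraries, with 36 in aged replicate 1, 23 in saline replicate 4 and 21 in microbead replicate 2, and 2 to 10 in the low ones. Each of the 19 genes made up a very small part of its library, and where the reads came from was not tested.

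**Figure D5:**
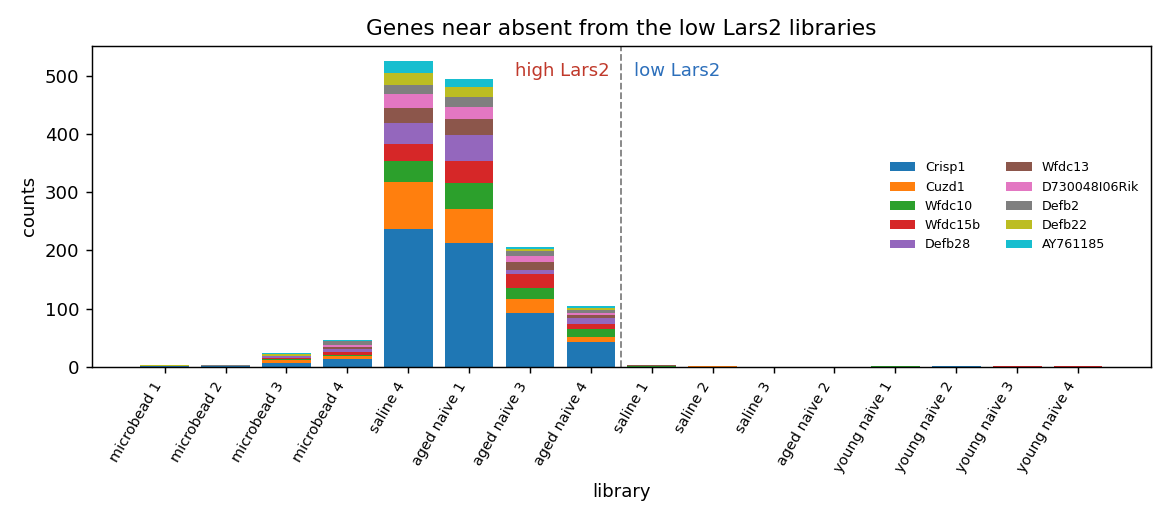
Counts per library, stacked, of the 10 most abundant of the 19 genes near absent from the low libraries, with the 8 high libraries to the left of the dashed line and the 8 low libraries to the right. Saline replicate 4 and aged replicate 1 have the tallest bars, Crisp1 alone giving 237 and 212 counts, and the microbead libraries lie close to the low ones.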

How the data were processed

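The authors aligned reads of SMARTer Ultra Low Input libraries, which do not record strand, to mm10 with STAR 2.3.0 and deposited whole, unnormalized counts per gene from featureCounts and the length of its exons. For featureCounts, the version, the annotation and the handling of multiply mapped reads were not given in the sources used here. Tables of the authors' own comparisons (normalized values, averages, ratios, p-values) were not used, except that their column names show which 14 libraries were kept. Values here start from the deposited counts of 16 libraries, 6213789 to 10726122 counts each, and the depth limits genes with few counts.

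Low genes were removed by filterByExpr, TMM factors were computed, and levels were shown as log2 CPM with a prior count of 2. High and low libraries were described without a test. Labelled groups were compared by quasi-likelihood (robust option) in edgeR 4.0.16 in 1 model of the 4 groups, adjusted by Benjamini-Hochberg. A gene was called when the groups were 1.5-fold or more apart with an unadjusted p below 0.01 and an adjusted p below 0.05. DESeq2 1.42.0 was an alternative. GC content came from GENCODE M21 transcripts. Each replicate came from different pooled mice, no 2 libraries of a group were alike within sampling noise, and the replicate numbers did not pair the samples.

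The members and the 28 gene lists were chosen with earlier results of these data known. The text names Lars2, Mir5109 and Rn45s, the 10 genes per direction with the largest gap between the classes among genes with a mean count of at least 50 (Lars2 and Mir5109 being 2 of them), and members with the largest differences from each list. Genes named outside this rule were chosen after their values were seen. Alternatives were other scalings, filters and prior counts, the removal of the 3 genes or of the length trend (loess, span 0.5), the 14 libraries, the titles' number 3 or 4 alone, the replicate block and the removal of each library in turn.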

Additional observations from a re-analysis of the deposited data

Results flagged for a closer look

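Samples far from the other 3 of their labelled group were found 35 times in 116 group comparisons over 29 measures, where chance gives about 1 in 20, and the measures share libraries and are not independent. Of these, 16 were in the aged and 16 in the saline group, against 2 in the young and 1 in the microbead group. The genes were chosen for their separation between the Lars2 classes, so that the library of the other class standing out is partly set by that choice.

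In the saline group, replicate 4 stood above the other 3 with 5555 CPM of Lars2, 146 CPM of Mir5109, 47.4 CPM of Ngfr and 76.7 CPM of Vat1. It had 39.3 CPM of Nacc1, 67.6 CPM of Epn1, 322 CPM of Dpysl2, 17.2 CPM of Gpr162 and 31.9 CPM of Zfyve1. It stood below them with 55.6 CPM of Urod and 13.7 CPM of Rpp21. Crisp1, at 28 CPM, and Spink8, at 13.7 CPM, also stood above, as did the sum of 150 beta-defensin counts and the correlation of level with gene length, at 0.41. Saline replicate 2 had the highest total of its group, 10260000 counts.

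In the aged group, replicate 2 stood below the other 3 with 677 CPM of Lars2, 16.7 CPM of Mir5109, 13.7 CPM of Vat1, 8.01 CPM of Nacc1 and 14.1 CPM of Epn1, and with a correlation of level with gene length of -0.396. It stood above them with 619 CPM of Nupr1, 105 CPM of Fam165b, 383 CPM of Dynll1, 53.7 CPM of Pfdn4 and 1914 CPM of Fxyd1. The same held for Cuta at 154 CPM, Tmem85 at 99.2 CPM, Fkbp2 at 378 CPM and Rpp21 at 27.6 CPM, and for the share of counts in the 10 most abundant genes, at 12.4%.

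Young replicate 2 had 0.113 CPM of Crisp1 and young replicate 3 had 0.227 CPM of Spink8 where the rest of the group had 0, from 1 and 2 counts. Microbead replicate 4 had the most genes with a count in its group, 16850.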

How the results depend on the processing

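The number of high libraries was 8 with TMM totals, thresholds of 1000 or 4000, or totals without Lars2, Mir5109 and Rn45s. The genes above and below without overlap numbered 1708 and 433 when scaled by the library total only, which moved the median of all genes to 0.121 and the share of genes above among those apart to 79.8%, against 54.9%. They numbered 643 and 309 with the length trend removed, 2750 and 3343 among the 7 libraries titled 3, and 2651 and 2738 among the 7 titled 4, where fewer libraries have to be apart. Leaving out 1 library gave 1137 to 1390 above and 931 to 1207 below. The gap in the length correlation between the lowest high and the highest low library was 0.47, and 0.095 when the young median was the base, and 0.579 for genes with a mean count of at least 50. No class difference of a named gene that was apart changed sign, and 109 of 2920 values moved by more than 1 SD. Microbead against saline gave 1810 calls over 14 libraries, 58 with DESeq2 and 0 to 1527 without 1 library. Saline against young gave 1 over 14 libraries and 0 without any 1 library. Aged against young gave 2193 to 3762 calls and microbead against aged 852 (without microbead replicate 4) to 1589 when 1 library was left out. The difference between the responses gave 1105 calls over 14 libraries and 186 to 1028 when 1 was left out, the lowest without microbead replicate 4. With the replicate number as a block, which the correlations of same-numbered libraries do not bear out (-0.213 to 0.518), the counts were 2801, 0, 0 and 1411 for aged against young, microbead against saline, saline against young and microbead against aged, and 432 for the difference between responses. The difference of library totals was -960400 to -315800 without 1 library, all with p above 0.05. The planned tests of RNA concentration and integrity between the classes were not run: these values are given with the study and not in the count table, and they were not used here. Genes with few counts are limited by depth.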
